A study of Mus musculus with 12 samples.

Results

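The genes described here are 9 members of folate-dependent one-carbon metabolism in mouse embryonic fibroblasts: the folate carrier Slc19a1, the serine hydroxymethyltransferases Shmt1 and Shmt2, the folate-interconverting enzymes Mthfd1, Mthfd1l, Mthfd2, Mthfd2l and Aldh1l2, and thymidylate synthase Tyms. They were taken by symbol from a raw count table of 55573 genes, and all 9 had a row and passed the filter on low counts that kept 19174 genes. The fibroblasts (MEF, C57BL/6, taken from E13.5 embryos) carry a cassette that doxycycline switches on and that encodes the reprogramming factors OSKM (Oct4, Sox2, Klf4 and Myc), known to turn fibroblasts into induced pluripotent stem cells. Clones 1, 2 and 3, each from its own embryo, were each grown for 72 h in stem cell medium as uninduced MEF, as MEF with 2 µM vitamin B12 (MEF+B12), with doxycycline at 1 µg/ml (OSKM), or with both (OSKM+B12). Each clone gave 1 library per group, so each of the 4 groups had 3 libraries and the series 12. All groups carried the cassette, and doxycycline was given only to the induced groups, so the drug and the factors cannot be told apart. The doxycycline dose is that of the labels, and the study's methods give a different concentration.

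Folates carry single carbon units that come mainly from serine. Serine hydroxymethyltransferase cleaves serine to glycine and passes a carbon to tetrahydrofolate, by Shmt1 in the cytosol and Shmt2 in mitochondria, and the Mthfd enzymes then interconvert methylene, methenyl and formyl folates so that mitochondria can export formate and the cytosol can use it for purines, thymidylate and methionine. Aldh1l2 oxidizes mitochondrial formyl folate to carbon dioxide, and Tyms methylates dUMP to dTMP for DNA synthesis. Vitamin B12 meets this cycle at methionine synthase, encoded by Mtr, which takes the methyl group of methyl folate. The comparisons ask whether the transcripts of these enzymes differed with OSKM induction, with B12, or with both.

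All positions are on GRCm38 and all 9 genes are protein coding. On chromosome 10 lie Slc19a1 (chr10:77032241-77061002, plus strand), Shmt2 (chr10:127517123-127522444, minus strand), Mthfd1l (chr10:3973118-4167081, plus strand) and Aldh1l2 (chr10:83487450-83534140, minus strand). Tyms (chr5:30058202-30073617, minus strand) and Mthfd2l (chr5:90931117-91021368, plus strand) are on chromosome 5. Mthfd2 is at chr6:83305691-83325908 on the minus strand, Shmt1 at chr11:60788104-60811718 on the minus strand, and Mthfd1 at chr12:76255298-76319803 on the plus strand. No member had an exon overlapping another gene on the same strand, and the share of its 31-base words found in transcripts of other genes ran from 0% to 9.82%, the highest being that of Tyms.

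RefSeq promoter sequence (GRCm38.p6) was held for 8 of the 9 members, as 9 start sites since Slc19a1 has 2. The 250 bases before each start were searched on both strands for CACGTG (the E-box bound by Myc, which the cassette encodes), TGATGNAAT (the amino acid response element of ATF4) and TTTNNCGC (an E2F site). These letters occur in 6.02%, 0.816% and 4.28% of 32851 promoters of that length. Among the members only Tyms held any of them, a single E-box whose first base is 61 bases before the start. Of the 9 windows, 5 overlap an exon in GENCODE (those of Mthfd1, Mthfd2, Mthfd2l and Shmt1 and 1 of Slc19a1), and only windows without such an overlap are printed. A match of letters is a description, and its absence from this window says nothing of the factor. The windows of Tyms, which carries the match, and of Mthfd1l and Shmt2, which had higher estimates after induction, are shown 5′ to 3′ on the gene's strand with the E-box in capitals. Their positions are chr5:30073626-30073875 (minus strand), chr10:3972825-3973074 (plus strand) and chr10:127522445-127522694 (minus strand).
Tyms: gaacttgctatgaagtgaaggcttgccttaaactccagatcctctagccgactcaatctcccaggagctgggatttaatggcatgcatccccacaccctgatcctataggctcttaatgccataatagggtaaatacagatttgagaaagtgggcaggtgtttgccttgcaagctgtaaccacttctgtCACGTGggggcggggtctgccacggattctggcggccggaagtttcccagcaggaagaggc
Mthfd1l: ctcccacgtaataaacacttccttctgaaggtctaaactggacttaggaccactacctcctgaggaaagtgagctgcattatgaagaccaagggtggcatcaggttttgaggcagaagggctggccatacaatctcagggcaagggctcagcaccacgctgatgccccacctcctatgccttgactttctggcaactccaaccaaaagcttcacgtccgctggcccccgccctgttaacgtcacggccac
Shmt2: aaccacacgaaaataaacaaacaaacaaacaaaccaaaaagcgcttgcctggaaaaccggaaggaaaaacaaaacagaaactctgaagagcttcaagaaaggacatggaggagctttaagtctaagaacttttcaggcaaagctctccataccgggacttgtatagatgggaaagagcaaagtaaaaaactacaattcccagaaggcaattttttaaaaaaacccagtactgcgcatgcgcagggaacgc

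Library totals ran from 56971244 to 79236795 counted read pairs, and the members had from 307 pairs (Shmt1 for MEF clone 1) to 3933 pairs (Aldh1l2 for MEF clone 2). The induced factors were checked first: Pou5f1, which encodes Oct4, was at 18.5 to 20.7 CPM (read pairs per 1e+06 pairs of the library after TMM scaling) in the 4 induced libraries of clones 1 and 2, at 2.86 and 2.34 CPM in those of clone 3, and at most at 0.468 CPM in uninduced cells. Klf4 did not follow, with 108 to 123 CPM in induced and 118 to 143 CPM in uninduced libraries and a log2 fold change of -0.12 (adjusted p = 0.0452, and 0.242 with the libraries of a clone added together). This call passed in 5 of 22 alternative settings. Sox2 was at 2.18 to 17.8 CPM in induced and 0.38 to 0.84 CPM in uninduced libraries. Myc was at 20.05 to 53.4 CPM in induced and 16.4 to 23.3 CPM in uninduced libraries. Both passed as higher with induction averaged over B12, at adjusted p = 0.0442 (Sox2) and 0.214 (Myc) with the libraries of a clone added. Counts per gene do not separate transcripts of the cassette from those of the endogenous gene. In uninduced cells Klf4 stood far above Pou5f1, Sox2 and Myc, so a gain of the size seen for these could be missed. OSKM clone 1 stood apart in pseudogene counts, where its deviations had an SD of 0.556 on the log2 scale against 0.114 to 0.247 in the other libraries. Its protein-coding deviations had an SD of 0.263 against 0.140 to 0.259. Fibroblast markers were abundant in every library, their 10 genes together at 88190 CPM or more.

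Per kilobase of exon, the 9 levels spanned roughly an order of magnitude. Shmt2, the mitochondrial serine-cleaving enzyme, was highest at 14.0 ± 1.00 CPM per kb (SD over 12 libraries), and its lowest library, at 12.7, was above the highest of every other member. Mthfd1, the trifunctional cytosolic enzyme, followed at 8.19 ± 0.563 CPM per kb, then Aldh1l2 at 6.13 ± 1.13 and the mitochondrial dehydrogenase Mthfd2 at 5.50 ± 0.452. Mthfd1l, the mitochondrial formyl folate synthetase, had 3.97 ± 0.541 CPM per kb, Tyms 3.20 ± 0.225, Slc19a1 2.64 ± 0.198 and Shmt1 1.95 ± 0.306. Mthfd2l, the second mitochondrial dehydrogenase, was lowest at 1.24 ± 0.0629 CPM per kb, and its libraries did not overlap those of Shmt1. Neighbours from Mthfd1 down to Shmt1 overlapped in their ranges over libraries, so their order is that of the means only. Across the 12 libraries, the CPM of Mthfd2l varied least, with a coefficient of variation of 5.05%, and that of Aldh1l2 most, with 18.5%.

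**Figure D1:**
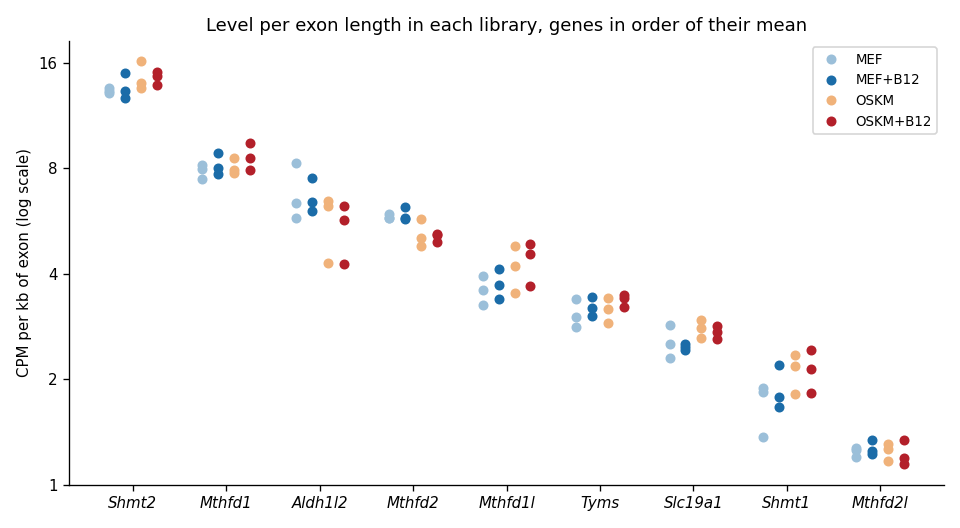
CPM per kilobase of exon (log scale) for each member in each of the 12 libraries, 3 points per group, with the genes in order of their mean. Shmt2 stands above every other gene at 12.7 to 16.2 CPM per kb and Mthfd2l lies lowest at 1.14 to 1.34.

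Levels within 3 pairs of related enzymes were compared per length. The ratio of the mitochondrial to the cytosolic serine-cleaving enzyme, Shmt2 to Shmt1, was 8.03 ± 1.60 for MEF, 7.42 ± 1.60 for MEF+B12, 7.04 ± 1.65 for OSKM and 6.93 ± 1.17 for OSKM+B12 (SD, n = 3). Clone 1 had the highest ratio in all 4 groups, between 8.25 and 9.87, while the other clones lay between 5.79 and 7.45. The ratio of Mthfd2 to Mthfd2l was 4.69 ± 0.110, 4.66 ± 0.411, 4.18 ± 0.450 and 4.18 ± 0.269 in the same order of groups. The MEF libraries, at 4.59 to 4.81, lay above those of OSKM (3.67 to 4.54) and OSKM+B12 (3.87 to 4.36), while the MEF+B12 libraries (4.28 to 5.10) overlapped all other groups. Of the third pair the cytosolic enzyme was the more abundant, with ratios of Mthfd1 to Mthfd1l of 2.20 ± 0.268, 2.19 ± 0.0649, 1.96 ± 0.223 and 1.99 ± 0.135. Their ranges overlapped, except that MEF+B12 (2.144 to 2.265) lay just above OSKM+B12 (1.881 to 2.141). None of these ratios was tested.

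The transport and serine-cleaving genes had higher estimates in induced cells. Slc19a1 was at 11.7, 10.7 and 13.2 CPM for MEF clones 1 to 3, at 11.7, 11.3 and 11.5 for MEF+B12, at 12.2, 13.7 and 13.01 for OSKM and at 12.7, 13.2 and 12.1 for OSKM+B12. The induced libraries lay higher in 5 of 6 pairs of 1 clone, and the ranges overlapped. Here and below the 6 pairs come from 3 clones, with and without B12, so they are not independent. Shmt1 was at 5.32, 7.13 and 7.32 CPM for MEF and at 6.45, 6.92 and 8.53 for MEF+B12, against 7.05, 9.08 and 8.48 for OSKM and 7.07, 9.42 and 8.28 for OSKM+B12. It was higher in 5 of 6 pairs, the exception being clone 3 with B12. Shmt2 was at 42.0, 40.8 and 41.4 CPM for MEF and 46.4, 41.3 and 39.6 for MEF+B12, against 50.4, 43.5 and 42.0 for OSKM and 46.7, 45.5 and 43.1 for OSKM+B12. All 6 pairs were higher, by 0.01 to 0.26 on the log2 scale, with overlapping ranges.

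Among the folate-interconverting enzymes, Mthfd1l had higher estimates and Mthfd2 and Aldh1l2 lower ones. Mthfd1l was at 17.4, 14.4 and 15.9 CPM for MEF and 18.3, 15.1 and 16.4 for MEF+B12, against 21.3, 18.7 and 15.6 for OSKM and 21.5, 20.2 and 16.4 for OSKM+B12. Clones 1 and 2 were higher after induction and clone 3 was at nearly the same level. Mthfd2 was at 20.1, 20.6 and 20.1 CPM for MEF and 21.7, 19.9 and 20.1 for MEF+B12, against 16.7, 17.6 and 19.97 for OSKM and 18.0, 17.1 and 18.1 for OSKM+B12. It was lower in all 6 pairs, and the ranges met only at OSKM clone 3. Aldh1l2 was at 43.3, 62.2 and 47.7 CPM for MEF and 45.3, 56.5 and 48.0 for MEF+B12, against 32.2, 46.8 and 48.4 for OSKM and 31.9, 46.9 and 42.8 for OSKM+B12. It was lower in 5 of 6 pairs, and clone 2 had the highest level in uninduced cells.

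The remaining enzymes differed little between states. Mthfd1 was between 33.0 and 39.3 CPM in uninduced and between 34.5 and 41.9 CPM in induced libraries. Mthfd2l was between 7.95 and 8.89 CPM in uninduced and between 7.59 and 8.88 CPM in induced libraries. Tyms was at 20.6, 17.1 and 18.3 CPM for MEF, 20.9, 18.5 and 19.5 for MEF+B12, 20.8, 19.2 and 17.6 for OSKM and 21.1, 20.8 and 19.6 for OSKM+B12. In each of these the induced and uninduced ranges overlapped for most of their width. Induced libraries lay higher in 4 of 6 pairs of 1 clone for Mthfd1, in 3 of 6 for Mthfd2l and in 5 of 6 for Tyms.

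**Figure D2:**
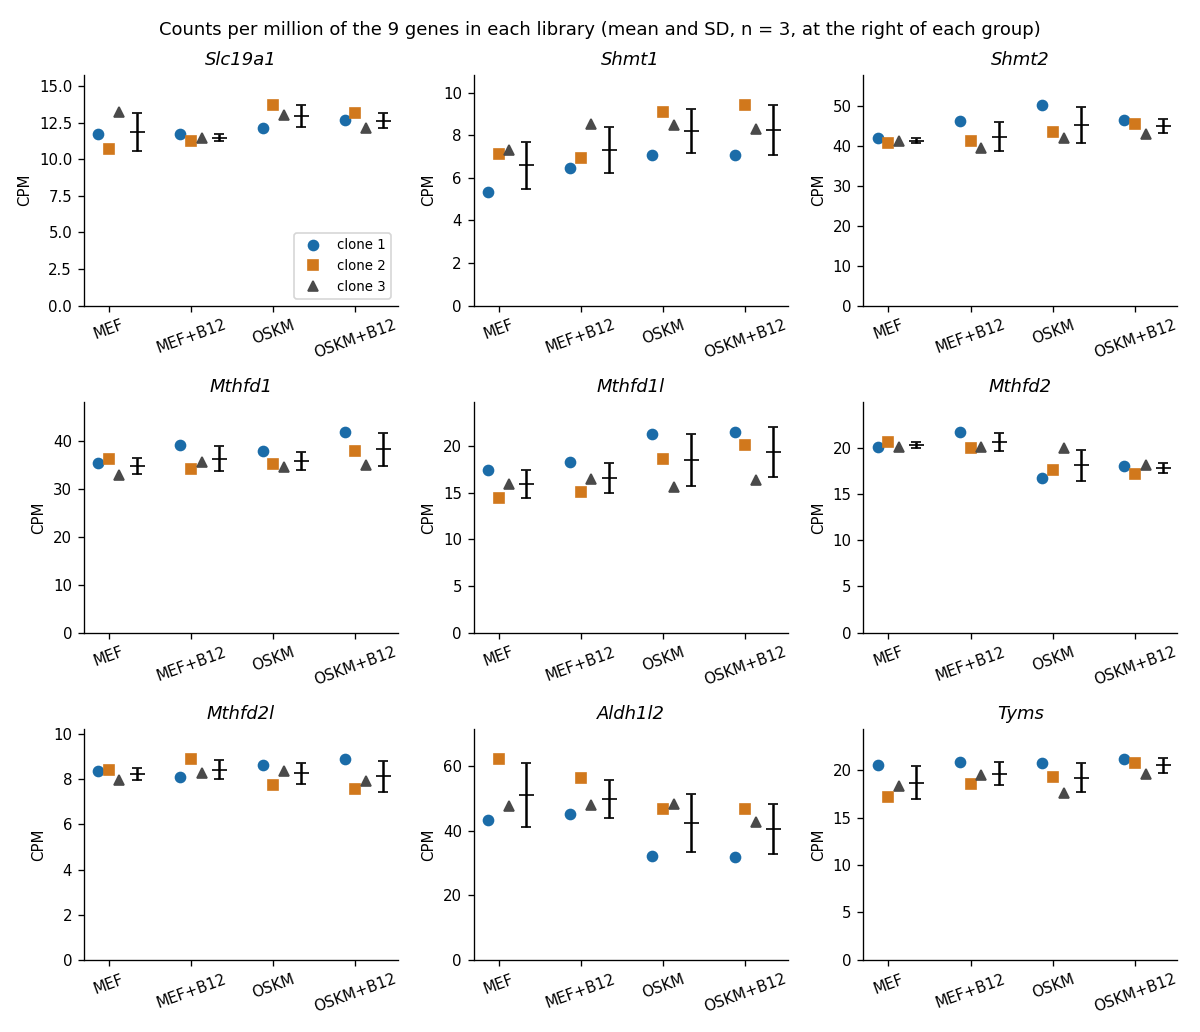
CPM of each member (y axis, from 0) in the 4 groups (x axis), with 1 point per clone and the mean and SD of 3 libraries at the right of each group. Aldh1l2 is lowest in the induced libraries of clone 1 (32.2 and 31.9 CPM), and Mthfd1l is highest there (21.3 and 21.5 CPM).

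In the edgeR fit over 12 libraries, induction averaged over both B12 levels changed 3 of the 9 members at an adjusted p under 0.05, and 9.73% of all genes tested passed the same rule. Shmt1 rose, with a log2 fold change of 0.25 ± 0.07 (SE; adjusted p = 0.0431), an increase of 18.7%. Aldh1l2 fell by 0.29 ± 0.06 on the log2 scale (adjusted p = 0.0241), and Mthfd2 fell by 0.19 ± 0.05 (adjusted p = 0.0367). Mthfd1l, with 0.21 ± 0.06 (adjusted p = 0.0544), and Shmt2, with 0.11 ± 0.04 (adjusted p = 0.0900), did not pass, nor did Slc19a1 with 0.13 ± 0.06 (adjusted p = 0.173). Mthfd1 (0.06, adjusted p = 0.358), Tyms (0.05, 0.467) and Mthfd2l (-0.02, 0.827) had the smallest estimates. The median log2 fold change was 0.06 over the members and -0.0028 over all genes tested, and the median size without sign was 0.13 against 0.10.

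These 3 calls rest on counting the libraries with and without B12 of a clone as separate replicates. With the libraries of a clone added together in each state, so that each of the 3 clones entered once, none of the 9 members passed, with adjusted p = 0.214 for Aldh1l2, 0.215 for Mthfd2 and 0.232 for Shmt1, and 13 genes in all did. Without the clone as a block (an unpaired fit) the count was 0 for the members and 0 for all genes tested. Leaving out clone 1 or clone 2 ended all 3 calls, as did leaving out any 1 of their 8 libraries. Calls over all genes fell as well, from 1865 to 10 without clone 1 and to 3 without clone 2. They ran from 49 to 771 without 1 of those libraries. Without clone 1, clone 2 or one of those libraries, Aldh1l2 had estimates of -0.30 to -0.21 and adjusted p of 0.0503 to 0.426, Mthfd2 of -0.20 to -0.15 and 0.0608 to 0.426, and Shmt1 of 0.18 to 0.26 and 0.0688 to 0.426. The lowest of these p-values belong to the fit without OSKM clone 1, the library that stood apart. Without clone 3 the count was 4, as Mthfd1l passed with 0.33 (adjusted p = 0.0061), and 3056 genes passed in all. Mthfd1l also passed without any 1 library of clone 3 (0.25, adjusted p 0.0246 to 0.0369), and without OSKM+B12 clone 3 Mthfd2 was at adjusted p = 0.0563. The fits without 1 library of clone 3 called 2068 to 3042 genes in all.

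**Figure D3:**
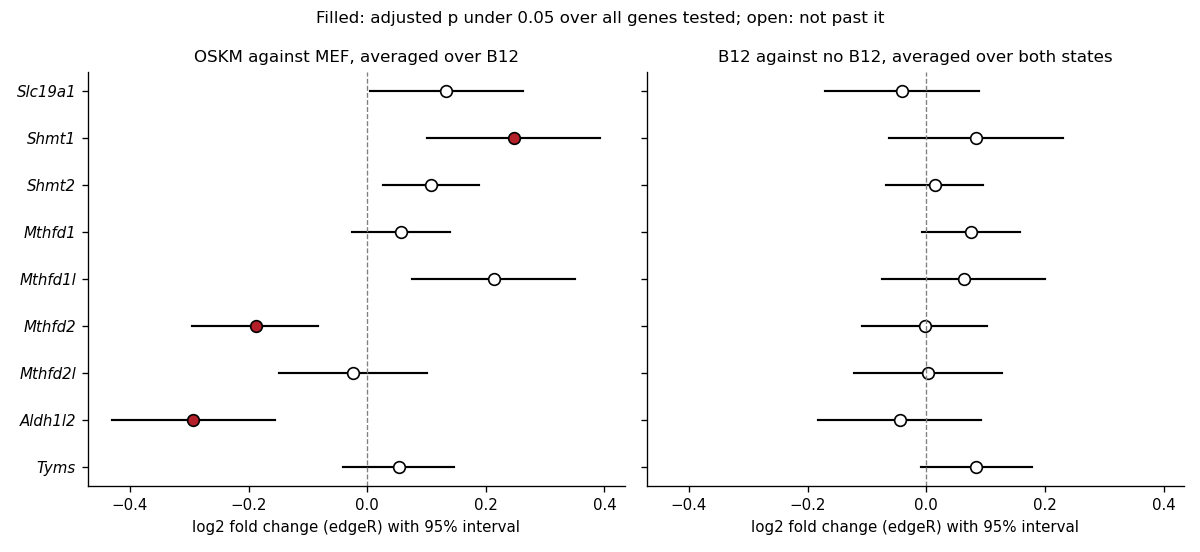
Log2 fold changes of the 9 members with their 95% intervals from edgeR, for induction averaged over B12 (left) and for B12 averaged over both states (right). Filled points passed an adjusted p of 0.05 in the fit over 12 libraries: Shmt1 at 0.25, Mthfd2 at -0.19 and Aldh1l2 at -0.29, and none on the right.

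At each B12 level alone, with 1 pair per clone, 0 of the 9 members passed. Without B12, 0.073% of all genes tested passed, and 19.0% had an unadjusted p under 0.05. The latter held 5 members: Shmt1 (0.32), Aldh1l2 (-0.27), Mthfd2 (-0.16), Mthfd1l (0.21) and Shmt2 (0.12), with adjusted p from 0.163 to 0.238. With B12, 0.104% of all genes passed and 14.9% had an unadjusted p under 0.05, among them 3 members: Aldh1l2 (-0.32), Mthfd2 (-0.21) and Mthfd1l (0.22), with adjusted p from 0.180 to 0.280. DESeq2 called 0 members without B12 and 1, Aldh1l2 at adjusted p = 0.0446, with B12. Over all genes tested it called 487 and 416. Without clone 3, Aldh1l2 passed without B12 (-0.42, adjusted p = 0.0167) and with B12 (-0.39, 0.0231) and Mthfd1l without B12 (0.33, 0.0429), and without the library of OSKM clone 3 Aldh1l2 passed there (-0.39, 0.0352). The fit without clone 3 called 1322 genes without B12 and 1004 with B12. Leaving out OSKM clone 3 gave 961 genes without B12. The estimates at both B12 levels had the same sign for 8 of the 9 members, Mthfd2l (0.00 and -0.05) being the exception.

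B12 did not move any member past the threshold. In uninduced cells 1.38% and in induced cells 1.06% of all genes tested passed, against 0 of the 9 members in each, and averaged over both states 3.84% of all genes passed against 0 members. No member had an unadjusted p under 0.05 in any of these, and DESeq2 called none. The highest estimates of the averaged effect were those of Tyms (0.08 ± 0.04, adjusted p = 0.380), Shmt1 (0.08 ± 0.07, 0.606) and Mthfd1 (0.08 ± 0.04, 0.372), and the lowest those of Aldh1l2 (-0.04 ± 0.06, 0.781) and Slc19a1 (-0.04 ± 0.06, 0.787). Tyms and Mthfd1l were higher with B12 in 6 of 6 pairs of 1 clone, by 0.02 to 0.15 and by 0.02 to 0.11 on the log2 scale. The 6 pairs come from 3 clones and are not independent, and the share of all genes with such agreement was not computed. The 95% intervals of the averaged effect held changes between -11.9% (Aldh1l2) and 17.3% (Shmt1) over all 9 members, so changes of this size were not excluded. The median size without sign was 0.04 over the members and 0.07 over all genes tested.

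The B12 effect in induced cells minus that in uninduced cells passed for 0 of the 9 members and for 0% of all genes tested by edgeR. At an unadjusted p under 0.05 the count was 0 members and 273 genes, and DESeq2 called 0 members. The difference ran from -0.15 ± 0.13 for Shmt1 to 0.03 ± 0.07 for Mthfd1, each with an adjusted p of 1.0.

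The estimated response to induction differed between clones, with Mthfd1l and Aldh1l2 having the widest spread. For Mthfd1l the differences between induced and uninduced cells were 0.29 and 0.23 (without and with B12) in clone 1, 0.37 and 0.42 in clone 2, and -0.03 and -0.01 in clone 3 on the log2 scale. For Aldh1l2 they were -0.43 and -0.51 in clone 1, -0.41 and -0.27 in clone 2, and 0.02 and -0.17 in clone 3. In both genes every value of clones 1 and 2 was farther from 0 than both values of clone 3, the clone with the lowest Pou5f1. The same order held for Mthfd2, but not for Slc19a1, Shmt1, Shmt2, Mthfd1, Mthfd2l or Tyms. With B12, for example, Shmt2 differed by 0.12 in clone 3 and by 0.009 in clone 1. Mthfd1l and Aldh1l2 were picked here for their wide spread, and a link to Pou5f1 was not tested. The F test of clone by state passed for 0 of the 9 members and for 2.15% of all genes tested. This test too counts the libraries with and without B12 of a clone as separate replicates of its response. The smallest adjusted p-values were those of Mthfd1l (0.0710) and Aldh1l2 (0.129), which alone had an unadjusted p under 0.05, as did 14.8% of all genes, and DESeq2 called 0. Mthfd1l passed without clone 1 (adjusted p = 0.0303), without OSKM clone 1 (0.0299) and without OSKM+B12 clone 1 (0.0126), and the last of these fits also called Aldh1l2 (adjusted p = 0.039). These 3 fits called 724, 838 and 2643 genes in all, against 413 with every library. The clones are described by the study as differing in reprogramming efficiency, and clone 1 also carries another year in its library titles than clones 2 and 3.

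**Figure D4:**
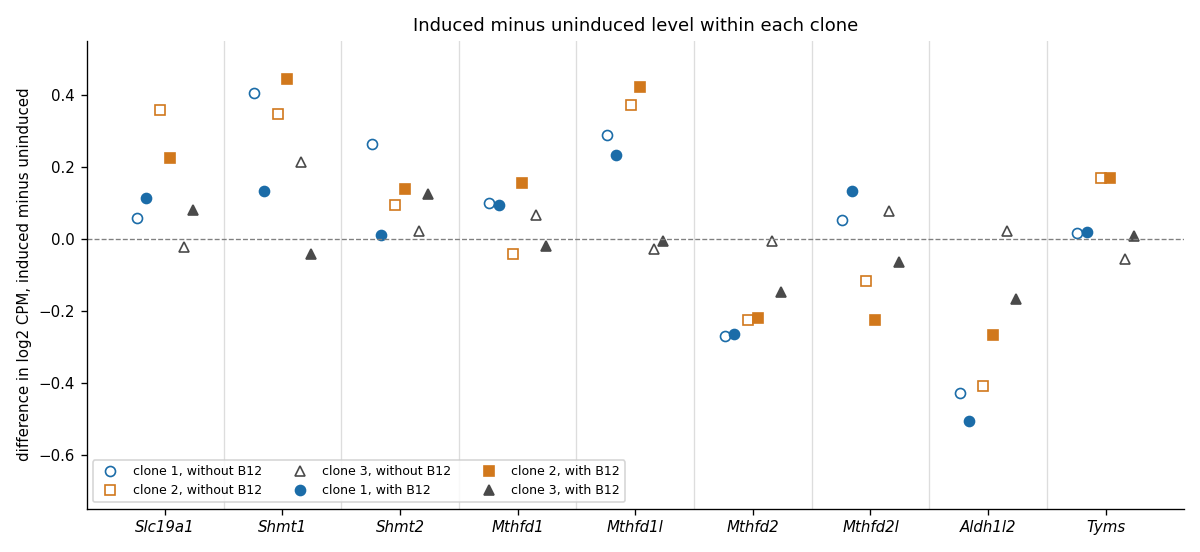
Difference in log2 CPM between induced and uninduced cells of the same clone for each member, without (open) and with (filled) B12. Clones 1 and 2 lie between 0.23 and 0.42 for Mthfd1l and between -0.51 and -0.27 for Aldh1l2, while clone 3 lies between -0.03 and -0.01 for Mthfd1l and between -0.17 and 0.02 for Aldh1l2.

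Of 15 further genes that bind, move, store or convert folate, 13 were tested and 1 fell with induction averaged over B12. Aldh1l1, the cytosolic counterpart of Aldh1l2, was at 34.5 ± 9.98 CPM for MEF, 34.3 ± 9.31 for MEF+B12, 30.2 ± 9.33 for OSKM and 28.2 ± 7.78 for OSKM+B12 (SD, n = 3). It fell by 0.24 ± 0.06 on the log2 scale (adjusted p = 0.0315, and 0.224 with the libraries of a clone added). Within clones it differed by -0.24 and -0.27 in clone 1, by -0.37 and -0.47 in clone 2, and by 0.02 and -0.09 in clone 3. Mtr, the B12-dependent methionine synthase, had a log2 fold change of -0.06 (adjusted p = 0.518) with induction and 0.03 (0.850) with B12. The median over the 13 genes was 0.03 for induction and 0.03 for B12.

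Folr2, a folate receptor known as a marker of tissue macrophages, was the only gene of this list to rise with B12. It was at 16.6, 10.6 and 5.43 CPM for MEF clones 1 to 3 and 22.3, 19.0 and 9.74 for MEF+B12, and at 18.4, 10.6 and 5.62 for OSKM and 21.7, 21.0 and 10.5 for OSKM+B12. It was higher with B12 in every clone and state, by 0.69 ± 0.09 on average (adjusted p = 0.00155, and 0.0110 with the libraries of a clone added). Of 11 macrophage markers, 10 also rose with B12 averaged over states, with a median log2 fold change of 0.57. The exception, Cx3cr1, had lower means with B12, at 5.05 CPM for MEF and 3.64 for MEF+B12, and at 3.47 for OSKM and 2.61 for OSKM+B12. The summed level of the 11 markers was 1263 to 2447 CPM for MEF, 1912 to 3243 for MEF+B12, 1295 to 2260 for OSKM and 1989 to 2634 for OSKM+B12, and their part in the Folr2 result was not tested. Lyz2 made up most of these sums, with a mean of 1063 CPM for MEF. Lyz2 and Itgam share 32.8% and 68.1% of their sequence words with other transcripts. In such bulk libraries more cells of a type and more RNA per cell cannot be told apart.

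Genes of neighbouring pathways are read against the 9.73% of all genes that passed with induction and the 3.84% that passed with B12. None of the 3 serine synthesis genes (Phgdh, Psat1, Psph) and none of 12 genes of the ATF4 amino acid response passed in any of the comparisons, at medians of -0.03 and -0.01 for induction averaged over B12. Phgdh, which shares most of its sequence words with other transcripts and is uncertain, had -0.12 (adjusted p = 0.0935) with B12. Of 4 glycine cleavage genes, Gldc, the decarboxylase that releases carbon from glycine, fell by 0.53 ± 0.13 with induction (adjusted p = 0.0313), from a low level of 1.01 ± 0.243 CPM for MEF to 0.670 ± 0.139 for OSKM. Of 6 purine synthesis genes, 2 rose with induction: Paics by 0.20 ± 0.04 (adjusted p = 0.0255) and Atic, whose product uses formyl folate, by 0.11 ± 0.03 (0.0483). None of the 6 passed with B12. With the libraries of a clone added, the adjusted p-values were 0.215 for Gldc and Paics and 0.266 for Atic.

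Of 10 genes that supply deoxynucleotides, Dctd, the dCMP deaminase that makes the dUMP used by Tyms, rose with induction by 0.25 ± 0.07 (adjusted p = 0.0432), as did Dtymk, the thymidylate kinase, by 0.14 ± 0.04 (0.0493). The salvage kinase Dck rose with B12 by 0.31 ± 0.06 (0.0119) and was higher in 6 of 6 pairs. Of 15 S phase and proliferation genes, Mcm7 rose with induction by 0.18 ± 0.04 (0.0236), and Mcm5 and Pcna rose with B12, by 0.24 ± 0.03 (0.0009) and 0.17 ± 0.03 (0.0105). With the libraries of a clone added, the 3 B12 results had adjusted p-values of 0.00281 (Dck), 0.00488 (Mcm5) and 0.0197 (Pcna), and the induction results 0.228 (Dctd), 0.243 (Dtymk) and 0.214 (Mcm7). Tyms itself passed in neither comparison. Over 22 alternative settings, the induction calls of the genes in these lists (Aldh1l1, Gldc, Paics, Atic, Dctd, Dtymk and Mcm7) passed in 7 to 11 and the B12 calls (Folr2, Dck, Mcm5 and Pcna) in 18 to 20. Mcm7 and Pcna share some of their sequence words with other transcripts (26.8% and 23.3%).

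Markers of other cells moved with induction beside these results. The summed level of the 10 fibroblast markers was 116300 to 141800 CPM for MEF and 112800 to 114300 for MEF+B12, against 88190 to 116900 for OSKM and 93780 to 104600 for OSKM+B12. Col1a1, Col1a2 and Col3a1 made up most of these sums. Their means were 41460, 33720 and 39660 CPM for MEF and 30640, 26950 and 33180 for OSKM. Of the 10 genes 4 fell with induction averaged over B12: Pdgfra, Pdgfrb, Col1a1 and Col1a2. Another 3 had estimates above 0. Mean levels of Dcn (2197 and 2407 CPM), Lum (1550 and 1635) and Thy1 (326 and 342) were lower for MEF than for OSKM. Of 7 epithelial markers 4 were tested and 3 rose (Krt14, Krt8 and Cdh1), with a summed level of at most 1.86 CPM in uninduced libraries and 1.17 to 13.6 CPM in induced ones. Krt18 did not pass, with means of 0.388 CPM for MEF and 0.373 for OSKM. The lowest OSKM values of Krt8 (0.257 CPM) and Krt14 (0.462) lay below their MEF means (0.288 and 0.509). Krt8 and Krt14 share 32.3% and 28.2% of their sequence words with other transcripts. Of 7 endothelial markers 4 were tested and Tek and Cdh5 rose, with summed levels of 43.0 to 48.7 CPM in uninduced and 49.7 to 146 CPM in induced libraries. Tek alone made up most of these sums, with means of 38.8 CPM for MEF and 101 for OSKM. Kdr (3.91 and 3.89) and Vwf (1.61 and 1.48) did not rise. Krt14, Krt8, Tek and Cdh5 also passed the F test of clone by state, so their response differed between clones. Of 6 neural markers 4 were tested and Tubb3 and Gfap fell, and of 6 skeletal muscle markers 2 were tested and none passed. The macrophage markers had 1 higher and 2 lower calls with induction. With the libraries of a clone added, none of these induction calls held, at adjusted p from 0.214 to 0.291, and over 22 alternative settings (21 for Cdh1) they passed in 7 to 11, except Krt14, which passed in 18. The part of these markers in the induction values of the members was not tested.

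The members' patterns over the 12 libraries, after each clone's mean was taken off, were compared among themselves and with 11641 genes as a description. These were tested genes above a minimum mean level, without predicted or clone-named genes and pseudogenes. The libraries share 3 clones and 4 groups, so a correlation holds the group differences too. Each gene named below was picked as among the highest of 11641, and how high r runs by this selection alone was not tested. Mthfd2 and Aldh1l2 were most alike among the members (Pearson r = 0.956), followed by Shmt1 and Mthfd1l (0.896), and Mthfd1l and Aldh1l2 were most opposed (-0.886). Of the 11641 genes, those most like Aldh1l2 were Cyp26b1 (0.986), Draxin (0.985) and Spon1 (0.984). Cyp26b1 (0.961) was also among those most like Mthfd2, with Pex14 (0.966) and Frmpd3 (0.960). For Mthfd1l they were Atp2a3 (0.988), Adam15 (0.971) and Nqo1 (0.970). For Shmt1 they were Atic (0.957), Eci1 (0.956) and Ppat (0.946), and for Shmt2 they were Mrpl35 (0.940), Fig4 (0.927) and Nol8 (0.912). Tyms was nearest to Mdm1 (0.960), Mfsd13a (0.923) and Stom (0.917), and Slc19a1 to Hr (0.956), Zfand1 (0.951) and Eno3 (0.940). Mthfd1, with Pola1 (0.898), Erlin1 (0.884) and Dnph1 (0.867), and Mthfd2l, with Cep85 (0.872), Zfp979 (0.854) and Rrp15 (0.847), had the lowest values.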

How the data were processed

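The authors prepared strand-specific poly(A) libraries, aligned paired reads to mm10 (GRCm38) with STAR (version 2.5.2 per the submitters' processing notes), counted pairs per Ensembl gene with featureCounts in reverse-stranded mode and added the flow cells of a library. The deposited values are raw counts of 55573 genes in 12 libraries, of which 55480 matched GENCODE M21. CPM were computed from the counts with TMM factors, and log2 CPM with a prior count of 2. Counts carry no molecular identifiers. Tests were quasi-likelihood F tests of edgeR 4.0.16 in R 4.3.3, with filterByExpr, clone and group as terms and Benjamini-Hochberg adjustment over 19174 genes at 0.05, first tried on simulated data. The test of clone by state instead had clone, state, clone by state and B12 within each state as terms. DESeq2 1.42.0 and other scalings, filters and samples were alternatives. Adjusted p-values are from edgeR unless another tool is named. Clones pair the libraries: libraries of 1 clone deviated together (correlations 0.270 to 0.687 over 18 pairs), against -0.51 to 0.17 between clones. Deviations were taken from the mean of each group and sum to 0 over its libraries. This centring by itself lowers the values between clones, so the contrast is partly set by it. Each clone comes from 1 embryo and gave 1 library per group. Members and gene lists were chosen with earlier results of these data known. All members are given, and of each list the counts, the genes past the threshold and up to 3 others. Adding the libraries of a clone was chosen after seeing the data.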

Additional observations from a re-analysis of the deposited data

How the results depend on the processing

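For induction averaged over B12, the count of 3 members past the threshold was 4 with DESeq2, with library totals and without a filter, and 3 with DESeq2 size factors or at least 10 counts in every library. In the same order 2465, 2128, 2552, 1860 and 1708 of all genes passed, against 1865. The member count was 0 without the clone as a block (no pairing) and 0 with the libraries of a clone added, and ran from 0 to 4 when a clone or library was left out. The count over all genes then ran from 3 to 3056. Library totals took Mthfd2 out of the calls (-0.14) and added Shmt2 (0.15) and Mthfd1l (0.26). At each B12 level alone, the count of 0 became 1 with B12 under DESeq2 and without a filter (Aldh1l2 in both), and ran from 0 to 2 without B12 and from 0 to 1 with B12 when a clone or library was left out. DESeq2 and the unfiltered fit called 416 and 646 genes in all with B12, against 20 by the filtered edgeR fit. For the response between clones the member count became 1 with library totals (Mthfd1l) and 1 without a filter (Aldh1l2), and ran from 0 to 2 when a clone or library was left out. Those 2 settings called 430 and 1257 genes in all, against 413. The counts for B12 and for the difference between its effects were 0 in every alternative run, and without the block too.

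Estimates near 0 changed sign. With library totals, Mthfd2l was at 0.0223 for induction averaged over B12 and Mthfd2 at 0.0221 for B12, and adding the libraries of a clone gave 0.00426 for Mthfd2. When a clone or library was left out, induction gave -0.033 to 0.0722 (without B12), -0.151 to 0.0336 (with B12) and -0.0828 to 0.0529 (averaged) for Mthfd2l, and -0.0121 to 0.0909 (without B12) and -0.000119 to 0.091 (averaged) for Tyms. B12 averaged over states then gave -0.0854 to 0.0318 for Slc19a1, -0.0071 to 0.0424 for Shmt2, -0.057 to 0.0472 for Mthfd2, -0.0304 to 0.0344 for Mthfd2l and -0.0888 to 0.019 for Aldh1l2, while Slc19a1 in MEF ran from -0.136 to 0.0539 and Aldh1l2 in OSKM from -0.14 to 0.06. Of 920 recomputed values for 42 results, 820 kept their direction and their side of the threshold. Only 3 of these results were calls in the fit over 12 libraries. Shmt1 and Aldh1l2 each lost the call in 2 of 7 other settings and Mthfd2 in 3. In 15 fits without a clone or library, the calls were lost in 10 for Shmt1 and Aldh1l2 and in 11 for Mthfd2. The cause of these changes was not tested. Counts of 307 to 661 pairs for Shmt1 and 449 to 654 for Mthfd2l make these the members with the largest relative counting error.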
